A study of Mchenga conophoros with 13 samples.

Results

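Neurod6b-rich spots were the places in sections of the cichlid telencephalon where the transcript of neurod6b (LOC101472195) took the largest share of the captured RNA. They were 330 of 6624 spots, 4.98%, and came from 13 capture areas of 4 adult males of Mchenga conophoros, a Lake Malawi fish whose males build sand bowers to court females. In each capture area the spots with at least 500 UMIs (unique molecular identifiers, one for each captured transcript) were ranked by neurod6b UMIs over all UMIs, and the highest 5% with at least 1 neurod6b UMI were taken. These spots are called members here, and the remaining spots of the same capture area are called other spots.

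The sections came from 2 males collected while building a bower and 2 control males that were not building, all over 180 days old, with no strain given in the labels. The paper describes them as 2 pairs of a building and a control male matched by size. The labels do not say which males form a pair. Coronal sections of 10 µm were laid on Visium slides, whose barcoded spots of 55 µm capture polyadenylated RNA from the tissue above them. A spot of that size can hold several cells of different kinds, so a member is a small region of tissue and not a cell. Building male 1 gave 1 capture area (C), and building male 2, control male 1 and control male 2 gave 4 each (A to D). How far along the telencephalon each section was cut is not in the labels used here, and the positions of the spots within a section were not used here. Members numbered 40 in building male 1, 134 in building male 2, 74 in control male 1 and 82 in control male 2. Values for the 4 males are given below in that order.

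Neurod6b belongs to the NeuroD family of basic helix-loop-helix transcription factors. In mammals its counterpart, NEUROD6, is made in young and mature excitatory neurons of the cortex and hippocampus, which use glutamate. The dorsal telencephalon of fish, the pallium, is likewise built mainly of glutamate neurons and expresses factors such as neurod6b, eomesa, bhlhe22 and fezf2. The ventral telencephalon, the subpallium, is built mainly of GABA neurons specified by dlx, six3, sp9, lhx6, lhx8 and isl1. Radial glia line the ventricle of both regions and, in teleosts, make brain aromatase.

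The 13 matrices held 6755 barcodes and 51748635 UMIs, and 131 barcodes with fewer than 500 UMIs were left out. Median depth per capture area ran from 1498 to 12165 UMIs a spot, and capture area C of control male 1 was the shallowest. Barcodes are printed on the arrays, so 1631 of the 2717 distinct barcodes occurred in 2 or more capture areas, and no 2 spots had identical counts. Averaged over males, members and other spots had like depths, with a median of 6926 ± 3075 UMIs in members and 6416 ± 2777 in other spots (mean ± SD over n = 4 males). Members were the deeper class in 5 of 13 capture areas. Within single capture areas the gap could be large, at 10518 against 5047 UMIs in A of control male 2.

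The value that chose the members is given as a description only. Neurod6b was at 782, 621, 995 and 713 CPM (counts per 1000000 UMIs of the summed spots) in members and at 61.2, 70.9, 72.8 and 86.0 in other spots, which gave means of 778 ± 159 and 72.7 ± 10.2 (SD, n = 4). Among the 13 capture areas it ran from 552 to 1441 in members and from 40.2 to 126 in other spots. Members held 1912 of the 5563 neurod6b UMIs, or 34.4%, so most neurod6b UMIs lay outside them. The edge of the group was not a break in the values. The last member of building male 1 was at 564 CPM and the first spot outside at 559.8, and the same pair was at 411 and 398 in capture area A of control male 2. In the shallow capture area C of control male 1 the pair was at 950.1 (2 of 2105 UMIs) and 909 (1 of 1100 UMIs), so single UMIs decided membership there.

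**Figure D1:**
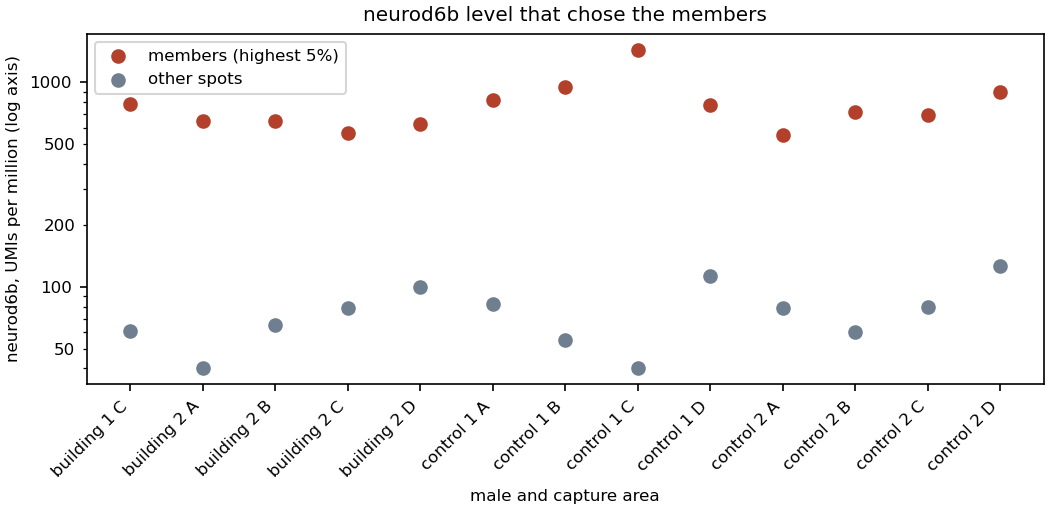
Level of neurod6b in CPM (log axis) in the members (red) and in the other spots (grey) of each of the 13 capture areas, 1 point per class and area. Members were chosen on this value. They lay between 552 and 1441 and the other spots between 40.2 and 126, and capture area C of control male 1 held both the highest member value and nearly the lowest value of other spots.

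Spots can be sorted by their own transmitter genes, without neurod6b. A spot was called glutamate-rich when its UMIs of slc17a6 and of both slc17a7 copies, which load glutamate into vesicles, outnumbered its UMIs of the GABA synthesis genes gad1, gad1b and gad2. By this count 77.5%, 93.6%, 75.8% and 93.0% of members were glutamate-rich, against 62.5%, 58.3%, 57.7% and 68.8% of other spots (capture areas averaged per male, 85.0% ± 9.6 against 61.8% ± 5.1, SD, n = 4). The share was higher in members in 13 of 13 capture areas and in 4 of 4 males. With 4 males an exact sign-flip test (two-sided) gave p = 0.125, the smallest value it can give. GABA-rich spots made up 7.51% ± 3.61 of members and 28.8% ± 5.69 of other spots. Spots were also thinned to 2000 UMIs, with shallower spots left out and members chosen again (297). The glutamate-rich share over all spots of a male was then 72.5% ± 8.15 in members and 55.4% ± 4.195 in other spots. By that same measure the shares without thinning were 84.6% ± 9.28 and 61.2% ± 5.03. Over all spots of each kind, members included, a neurod6b UMI was found in 37.1% ± 11.6 of glutamate-rich and in 18.2% ± 8.37 of GABA-rich spots. Their median depths were 6636 and 6861 UMIs. As the members were chosen for neurod6b, this is not a separate check. Since GABA-rich spots can themselves hold glutamate neurons or transcripts spread from neighbouring tissue, neurod6b UMIs in them were not read as expression by GABA cells.

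Members were next compared with the other spots gene by gene, to see which transcripts went with a high neurod6b rate. UMIs were summed per male and class, the male was kept as a block, and 13371 genes were tested without neurod6b itself. At an adjusted p under 0.05, 403 genes (3.01%) were higher and 672 (5.03%) lower in members. Vesicular glutamate transporter genes, several receptors and the marker genes of neurod6b nuclei were higher. GABA and subpallial genes and most neuropeptide genes were lower. A sum over spots cannot tell fewer cells of a type from less RNA per cell. Without building male 2 the counts were 265 and 447. After thinning to 2000 UMIs, with the members chosen again, they were 68 and 114. The calls of both slc17a7 copies, etv5, chrm5, galr2, adrb1, angptl4, grin1, npy, dusp5 and mpz were among those lost. Fewer UMIs and a changed set of members were not told apart in this setting.

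All 3 glutamate transporter genes were higher in members. The slc17a7 copy LOC101482485, for the vesicular transporter of many mammalian cortical neurons, was at 574, 515, 504 and 496 CPM in members and at 304, 286, 352 and 304 in other spots (log2 fold change 0.73, SE 0.08, adjusted p = 1.58e-13). Every male's members lay above every male's other spots, and members were higher in 13 of 13 capture areas. Its second copy, LOC101484681, was at 122, 98.9, 152 and 94.3 against 74.8, 43.2, 112 and 66.3 (log2 fold change 0.73, SE 0.13, adjusted p = 5.86e-06), higher in all 4 males and in 9 of 13 capture areas, although the classes overlapped between males. After thinning to 2000 UMIs their calls were lost (log2 fold changes 0.35 and 0.49, adjusted p = 0.131 and 0.492). For slc17a6, the transporter of most fish glutamate neurons, the levels were 768, 885, 713 and 792 and 535, 547, 602 and 601 (log2 fold change 0.46, SE 0.07, adjusted p = 1.41e-07), without overlap.

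Of 14 GABA and subpallial genes tested, 12 were lower, 0 higher and 2 did not pass, with a median log2 fold change of -2.34 beside -0.01 over all genes. The GABA synthesis gene gad1 was at 19.4, 21.4, 15.2 and 21.6 CPM in members and 112, 140.4, 82.6 and 67.6 in other spots (log2 fold change -2.35, SE 0.19, adjusted p = 1.27e-21), and gad2 was at 350.1, 218, 258 and 252 against 692, 566, 471 and 465 (log2 fold change -1.07, SE 0.09, adjusted p = 2.68e-21). Both were lower in 13 of 13 capture areas. Among the factors that specify subpallial neurons, dlx5 was at 43.8, 32.5, 33.4 and 32.9 against 269, 185, 119 and 109 (log2 fold change -2.21, SE 0.15, adjusted p = 2.06e-26) and six3 at 58.3, 11.1, 18.2 and 24.99 against 188, 170.4, 184 and 100.1 (log2 fold change -2.84, SE 0.33, adjusted p = 0.00174). The six3 call was lost without control male 1 (adjusted p = 0.0607). The striatal and septal factor isl1 had 0 UMIs in members and 373 in other spots, at least 7.04-fold lower by a floor of 3 UMIs over all members. The basal forebrain factor lhx8 had 5 UMIs in members and 1962 in other spots, and prdm12 had 3 and 1986. In other spots of building male 1 these 2 genes were near 0 as well (0.452 and 2.26 CPM), so that male added little to their calls. Among the 15 genes with the largest falls that had the same sign in 4 males, gbx1 (0 of 626 UMIs in members, at least 11.8-fold lower) and dlx3 (2 UMIs against 625) are also homeobox factors. In building male 1 gbx1 was near 0 in other spots too (1.13 CPM), as was isl1 (0.226 CPM).

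**Figure D2:**
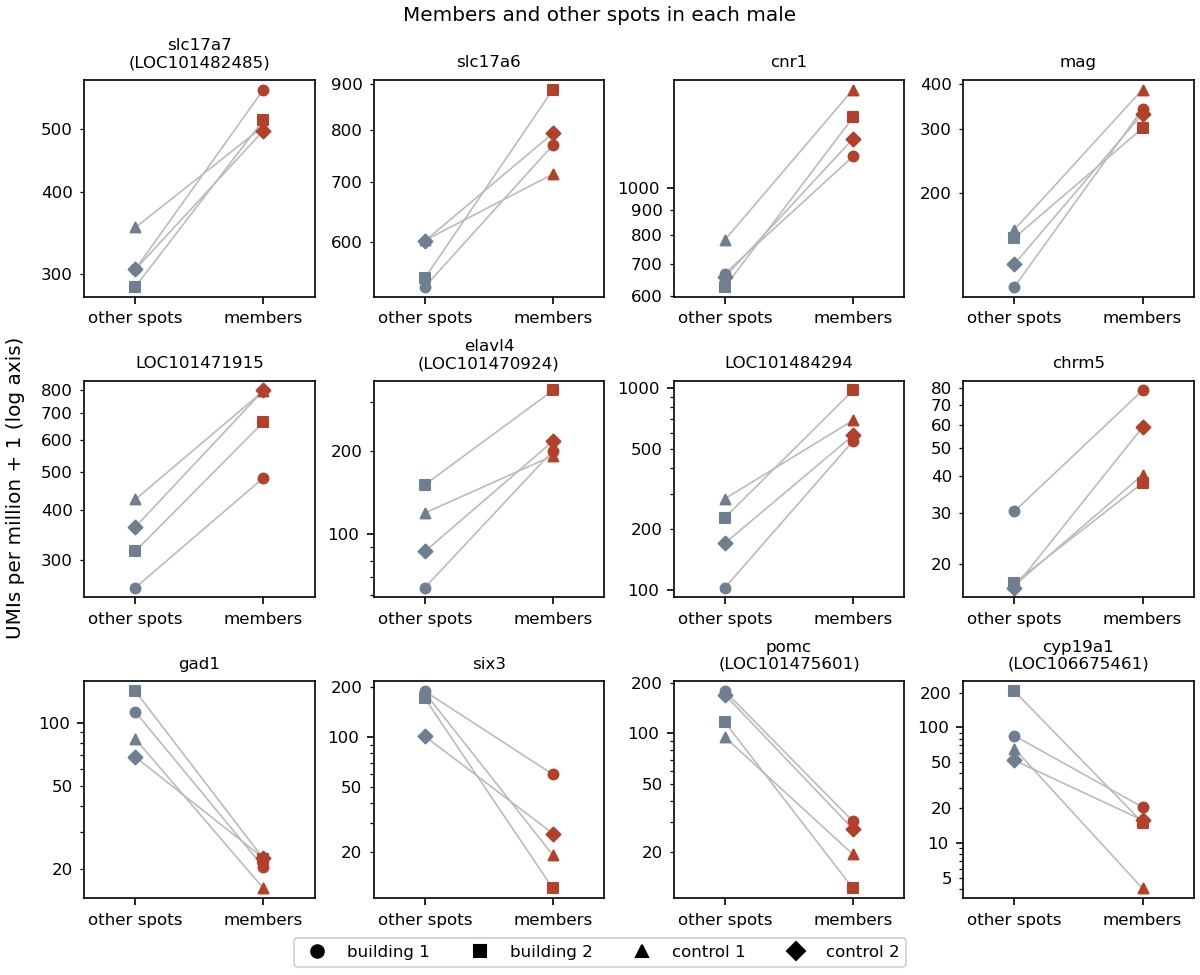
CPM + 1 (log axis) of 12 genes in the other spots (grey) and members (red) of each male, joined by a line, with 1 marker shape for each of the 4 males. The upper 8 genes rose in every male (slc17a7 copy LOC101482485 from 286 to 352 in other spots to 496 to 574 in members), and gad1, six3, pomc and cyp19a1 fell in every male.

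The pallial factors did not rise as a group, so high neurod6b did not go with a general rise of pallial transcription factors. Of 14 tested, 1 was higher, 3 lower and 10 did not pass, with a median of -0.39. Only etv5 (LOC101464108, an ETS factor) rose, at 146, 198, 237 and 232 against 145, 137, 164 and 196 (log2 fold change 0.36, SE 0.10, adjusted p = 0.0135), and 8 of 17 alternative settings lost that call. The factor fezf2, which in mammals specifies deep-layer projection neurons, was at 4.86, 11.8, 6.07 and 12.5 in members and 41.3, 32.9, 21.3 and 40.0 in other spots (log2 fold change -1.69, SE 0.26, adjusted p = 8.84e-08). Its level in members was below that in other spots in every male, although 3 of 13 capture areas had the opposite order. After thinning to 2000 UMIs the direction turned (log2 fold change 0.50, adjusted p = 0.79). The inhibitor of helix-loop-helix factors id2 (-0.41, adjusted p = 0.000412 as log2 fold change) and a dach gene (LOC101478100, -1.57, adjusted p = 0.00728, 3 of 4 males) were also lower. For eomesa, a T-box factor of pallial neurons, the levels were 82.7, 394, 63.7 and 187 in members and 248, 217, 188 and 285 in other spots (log2 fold change -0.28, SE 0.54, adjusted p = 0.915), with 1 male higher and 3 lower. The helix-loop-helix factor bhlhe22 was at 297, 102, 349 and 251 against 204, 144, 199.8 and 210.3 (log2 fold change 0.22, SE 0.21, adjusted p = 0.758). The pallial factors tbr1 (65 UMIs), emx3 (39 UMIs) and foxp1 (3 UMIs) were nearly undetected in other spots too, with 0, 0 and 1 UMI in members, and the second neurod6 copy had 0 UMIs in both, so these 4 were not tested. The label of the members as pallial therefore rests here on transmitter genes and on low subpallial factors.

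Markers of the nuclei clusters for which the study's nuclei data listed neurod6b rose more often than the genes of any other list, apart from the 3 glutamate transporters. The list comes from nuclei and not from these sections. Its clusters were picked for neurod6b, as the members were, so a rise of these markers is not a separate check of the members. Of 27 tested, 12 were higher, 0 lower and 15 did not pass, with a median of 0.61. One of them, mag, is named after a myelin-associated glycoprotein of mammals. It was at 340.3, 301, 385 and 330.5 CPM in members and 109.5, 149.8, 158 and 127 in other spots (log2 fold change 1.27, SE 0.10, adjusted p = 4.58e-23), and was higher in 13 of 13 capture areas. The gene LOC101471915, which has no name in the tables used here, was at 481, 664, 795 and 797 against 255, 315, 425 and 362 (log2 fold change 1.01, SE 0.08, adjusted p = 2.70e-23), higher in all capture areas as well. For elavl4 (LOC101470924), a neuronal RNA-binding protein, the levels were 199, 330.1, 191 and 216 and 63.0, 150, 118 and 85.5 (log2 fold change 1.17, SE 0.11, adjusted p = 2.08e-16). Lower expressed members of the list that passed were the postsynaptic scaffold homer3 (1.22, adjusted p = 1.21e-07 as log2 fold change), the channel gene aqp9 (1.44, adjusted p = 0.00121), the GATA cofactor zfpm2 (0.64, adjusted p = 4.11e-06), caln1, ecel1, vav2, asic4 and mex3a. After thinning to 2000 UMIs homer3 was at a log2 fold change of 0.13 (adjusted p = 0.982) and the aqp9 call was lost (adjusted p = 0.852), as it was without building male 2 (adjusted p = 0.165). The calcium channel subunit cacna2d1 passed as well (0.72, adjusted p = 0.0178, 3 of 4 males), and its case is taken up with the eomesa-rich members. Markers of all other excitatory clusters went the other way, with 2 higher, 15 lower and 33 not passing of 50 tested and a median of -0.42. The bicarbonate transporter slc4a10 (-1.68, adjusted p = 2.06e-26), the calcium-binding protein pvalb7 (-2.69, adjusted p = 2.75e-25) and col25a1 (-1.57, adjusted p = 1.41e-09) were among the lower ones, and epha5 and LOC101465999 were the 2 higher ones.

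Among the 15 genes with the largest rises that had the same sign in 4 males were 3 with many UMIs. The gene LOC101484294, unnamed in the tables used here, was at 544, 969, 689 and 580.3 in members against 102, 228, 282 and 169.9 in other spots (log2 fold change 1.85, SE 0.18, adjusted p = 0.00329), higher in 13 of 13 capture areas. It had 2162 UMIs in members, and all members lay above all other spots by male. The lipoprotein lipase inhibitor angptl4 was at 131, 26.6, 42.5 and 76.1 against 26.6, 8.20, 14.5 and 20.5 (log2 fold change 1.86, SE 0.19, adjusted p = 1.05e-14). LOC101487901, also unnamed, was at 92.4, 67.2, 130.5 and 120.4 against 22.1, 16.4, 43.2 and 52.9 (log2 fold change 1.63, SE 0.15, adjusted p = 6.12e-17) and higher in 13 of 13 capture areas.

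Receptor genes were mixed, with 7 higher, 7 lower and 50 not passing of 64 tested and a median of -0.33. The cannabinoid receptor cnr1, which dampens transmitter release, was at 1157, 1390, 1584 and 1257 in members and 667, 627, 782 and 656 in other spots (log2 fold change 0.97, SE 0.06, adjusted p = 3.34e-27). No male's members overlapped any male's other spots, and cnr1 was higher in 13 of 13 capture areas. A second and lower expressed gene of that name, LOC101464170, was higher in 8 of 13 capture areas. Its median over capture areas was 74.6 CPM in members and 73.0 in other spots. Because cnr1 was by far the largest term, the summed level of the list was higher in members (2932 to 3192 against 2259 to 2474 CPM) although the median gene was lower. The muscarinic acetylcholine receptor chrm5 was at 77.8, 36.9, 39.5 and 57.9 against 29.4, 16.2, 15.9 and 15.61 (log2 fold change 1.46, SE 0.19, adjusted p = 7.59e-10). The galanin receptor galr2 (LOC101487843) was at 112, 45.8, 60.7 and 57.9 against 39.8, 27.1, 46.3 and 39.8 (log2 fold change 0.73, SE 0.16, adjusted p = 0.000585). Genes for the beta-adrenergic receptor adrb1 (1.19, adjusted p = 0.000964, 3 of 4 males, adjusted p = 0.558 without control male 2), an adra2c copy (0.78, adjusted p = 7.66e-05), calcr and sctr were higher too. Both serotonin receptor htr7 copies were lower (-1.42 and -0.65), as were mc4r, nr4a2b, ramp1, rxfp4 and another adra2c copy.

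The list of peptides and ligands, which also holds gad1, gad2 and both slc17a7 copies, had 22 lower, 3 higher and 8 not passing of 33 tested, with a median of -1.35. The gene pomc (LOC101475601), precursor of melanocortins and endorphin, was at 29.2, 11.1, 18.2 and 26.1 CPM in members and 177, 115, 94.0 and 168 in other spots (log2 fold change -2.88, SE 0.18, adjusted p = 7.15e-30), and lower in 13 of 13 capture areas. The abundant peptide cck (LOC101483958) was at 1318, 749.5, 1317 and 1297 against 1848, 1588, 1941 and 2351 (log2 fold change -0.78, SE 0.07, adjusted p = 9.15e-14). Cck thus stayed abundant in members, and pomc did not reach 30 CPM in the members of any male. Peptides that GABA neurons make in mammals were lower, with log2 fold changes of -2.56 for tac1, -1.91 for pnoc, -2.13 for penka, -2.15 and -2.19 for 2 sst copies and -2.08 for npy. The npy call (adjusted p = 0.0345) was lost without control male 2 (adjusted p = 0.209). Endothelin gene edn3 (LOC101480896) was the 1 peptide that rose, at 9.72, 18.5, 18.2 and 24.99 against 5.42, 7.36, 10.5 and 10.9 (log2 fold change 1.14, SE 0.30, adjusted p = 0.00408). Its call was lost without building male 2 (adjusted p = 0.105), without control male 2 (adjusted p = 0.0965), after thinning to 2000 UMIs (adjusted p = 0.802) and with no replicate block (adjusted p = 0.0715).

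Glutamate receptor genes were 1 higher, 10 lower and 15 not passing of 26 tested, with a median of -0.28. The obligatory NMDA receptor subunit grin1 (LOC101475684) was at 817, 639, 662 and 763 in members against 911, 1032, 817 and 1066 in other spots (log2 fold change -0.45, SE 0.07, adjusted p = 1.05e-07), lower in 13 of 13 capture areas. The metabotropic receptor grm5 (LOC101480374) was at 209, 148, 118 and 118 against 301, 226, 267 and 273 (log2 fold change -0.89, SE 0.11, adjusted p = 2.86e-11). The 2 copies each of gria3, grin2a and grin2b, with 1 of the 5 genes named gria4 (LOC101467283, -0.77, adjusted p = 0.00187), were among the lower genes as well, and grm2 was the 1 that rose (0.27, adjusted p = 0.0279). So the members were richer in genes that load glutamate and poorer in several genes that receive it.

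The list of immediate early genes had 1 higher, 9 lower and 15 not passing of 25 tested, with a median of -0.32. Neurons switch such genes on within minutes of activity. According to the paper, most of the list was known and the rest had not been described as such before. Of that rest, dnajb5 was higher in members in 1 of 13 capture areas, and itm2c and adgrb1 in 2 each. The rtn4rl2 copies LOC101486758 and LOC101465305 were higher in 0 and 7. Of the known genes, npas4 was higher in 10 and egr1 in 3. Whether the falls reflect lower activity was not tested. A jun gene (LOC101482945) was at 539.7, 576, 841 and 559 in members against 383, 326, 502 and 427 in other spots (log2 fold change 0.61, SE 0.08, adjusted p = 9.75e-11), without overlap. The activity marker egr1 was at 277, 251, 304 and 249.9 against 381, 302, 345 and 352 (log2 fold change -0.36, SE 0.09, adjusted p = 0.00172), a call that was lost without control male 2 (adjusted p = 0.114), by limma (adjusted p = 0.0717), after thinning to 2000 UMIs (adjusted p = 0.479) and with no replicate block (adjusted p = 0.101). A fos copy (LOC101487601, -0.83, adjusted p = 0.00583) and the phosphatase gene dusp5 (-1.33, adjusted p = 1.36e-10) were lower too. A second fos copy, LOC101487312, had 188 UMIs in members, where LOC101487601 had 53. The median of LOC101487312 over capture areas was 68.7 CPM in members and 66.5 in other spots, so the fall was not shared by both copies.

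Markers of glia and vessels were checked because a spot can hold such cells. Among 12 radial glia genes 1 was lower and 11 did not pass (median -0.11), and the summed level was 1759 to 2674 CPM in members and 2232 to 2561 in other spots. A large part of that sum was LOC101486280, at 1006, 597, 1159 and 784 CPM in members. The study names it gria4, and it is also counted among the glutamate receptors above, so the sum is not a measure of glia alone. The 1 that fell was brain aromatase, cyp19a1 (LOC106675461), at 19.4, 14.03, 3.04 and 14.8 against 83.8, 205, 64.5 and 50.9 (log2 fold change -3.17, SE 0.25, adjusted p = 1.83e-11), while the structural genes gfap (LOC101468392, 68.1, 84.2, 88.0 and 77.2 against 85.6, 83.6, 95.9 and 79.2) and fabp7 (462, 244, 489 and 380.5 against 434, 316, 401 and 446) did not pass. Of 30 radial glia state genes, 4 were higher (slc1a2, mex3a, celsr3 and nfix), 2 lower (fezf2 and dlx2) and 24 did not pass (median -0.06). Of 9 microglia and vessel genes 0 passed (median -0.20, summed level 645 to 1078 against 825 to 849). Of 10 oligodendrocyte genes 3 were lower (mpz, cldnk and myrf), 0 higher and 7 did not pass, with a median of -0.88. Their summed level was 258 to 666 CPM in members and 449 to 1121 in other spots, none of the 10 was at 0 in members, and building male 1 alone had more in members (log2 ratio 0.57, against -1.40, -1.21 and -0.61). The myelin gene mpz was at 63.2, 53.9, 42.5 and 65.9 against 64.6, 146, 77.6 and 90.2 (log2 fold change -0.88, SE 0.16, adjusted p = 1.31e-05), and its call was lost without building male 2 (adjusted p = 0.138). The part of these glial levels in the other results was not tested.

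**Figure D3:**
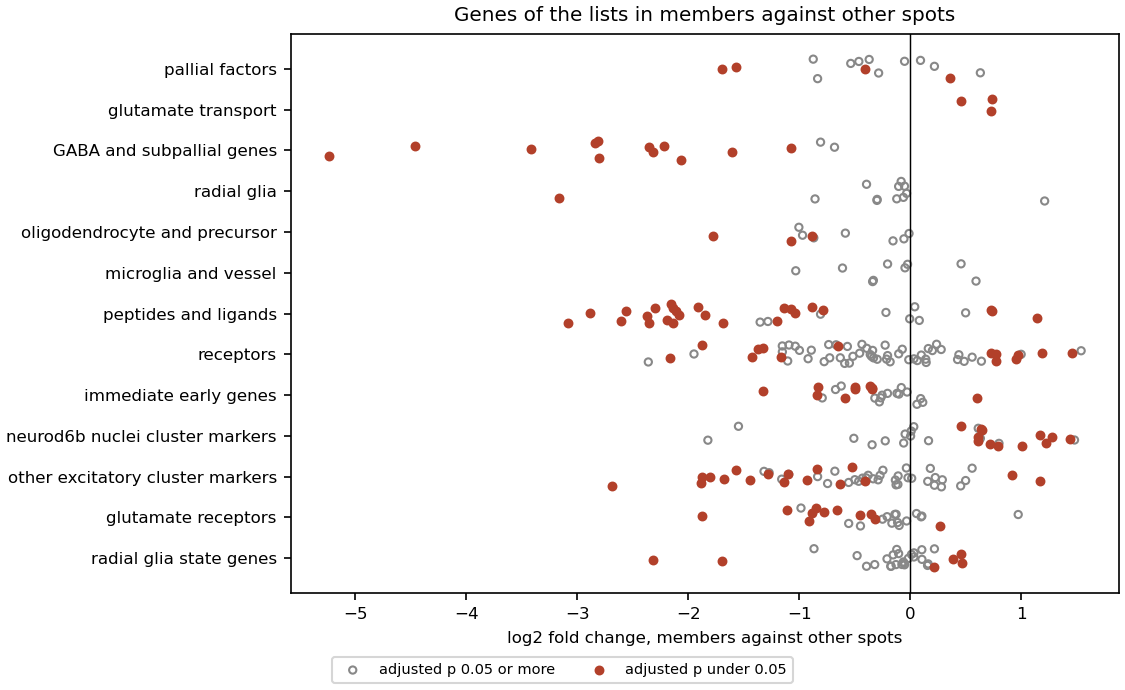
Log2 fold change (x axis, members against other spots) of each tested gene of 13 gene lists (rows), with 1 point per gene, filled red where adjusted p was under 0.05 and open grey elsewhere. Isl1 and oprm1, with 0 UMIs in members, are drawn at the bound set by the floor of 3 UMIs. Most GABA and subpallial genes and peptides lie left of 0, and 12 filled points of the neurod6b nuclei cluster markers lie right of it.

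Because many of these differences separate pallium from subpallium, the 287 glutamate-rich members were compared with the other glutamate-rich spots, with the 6 genes that define such spots left out. Levels of members in this comparison are those of these 287, and so differ from the levels over all 330. Of 12537 genes tested, 354 (2.82%) were higher and 619 (4.94%) lower in members, and the median over all genes was 0.00. Of the neurod6b cluster markers 10 of 25 were higher and 0 lower (median 0.49), and markers of other excitatory clusters were 1 higher and 21 lower of 49 (median -0.51). GABA and subpallial genes were 0 higher and 2 lower of 7 (six3 and sp9, median -0.56). Without building male 2 the counts over all genes were 226 and 408, and without control male 2 they were 180 and 406.

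Against other glutamate-rich spots LOC101484294 was at 605, 1004, 756 and 602 in members and 153, 363, 397 and 210 in the others (log2 fold change 1.42, SE 0.09, adjusted p = 3.40e-23). The axon guidance gene draxin was at 57.6, 169.7, 50.9 and 78.3 against 15.1, 55.7, 38.6 and 24.4 (log2 fold change 1.47, SE 0.15, adjusted p = 8.41e-19), higher in each male, although the 2 classes overlapped between males. The receptor cnr1 was higher (0.91, adjusted p = 9.98e-38 as log2 fold change), as were elavl4 (1.13, adjusted p = 2.27e-22), mag (0.89, adjusted p = 3.25e-18), LOC101471915 (0.93, adjusted p = 7.53e-29) and chrm5 (1.04, adjusted p = 2.05e-06). The tachykinin receptor tacr3 (LOC101469465) also passed (1.72, adjusted p = 0.00123) on 35 UMIs in members, and was lost without control male 1 (adjusted p = 0.124).

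Genes lower in members than in other glutamate-rich spots included some that members hardly expressed. The peptide precursor pomc was at 23.0, 11.5, 20.3 and 25.3 in members and 277, 186, 130.1 and 215 in other glutamate-rich spots (log2 fold change -3.46, SE 0.17, adjusted p = 8.42e-72). The parvalbumin gene pvalb7 (LOC101487165) was at 17.3, 12.3, 16.9 and 26.5 against 229, 133, 141 and 170.5 (log2 fold change -3.12, SE 0.17, adjusted p = 8.87e-58), and the transporter slc4a10 at 74.9, 68.3, 78.0 and 105 against 428, 307, 384 and 386 (log2 fold change -2.14, SE 0.11, adjusted p = 3.28e-66). In all 3 the members of every male lay far below the other spots of every male. The reproductive peptide gene gnrh1 was at 0, 13.8, 10.2 and 2.41 against 35.5, 81.5, 69.1 and 69.7 (log2 fold change -3.09, SE 0.25, adjusted p = 1.48e-29). Peptides and ligands were 0 higher and 9 lower of 27 (median -0.51), including cck (-0.96, adjusted p = 2.08e-15) and vip (-2.78, adjusted p = 1.20e-05). Pallial factors were 0 higher and 3 lower of 13 (fezf2, id2 and zic2, median -0.56), receptors 6 higher and 7 lower of 58 (median -0.12), glutamate receptors 1 higher and 9 lower of 26 (median -0.13) and immediate early genes 1 higher and 5 lower of 25 (median -0.25). Radial glia genes had 0 of 12 pass (median -0.11), microglia and vessel genes 0 of 8, and radial glia state genes were 4 higher and 2 lower of 30. Of 10 oligodendrocyte genes 5 were lower (mpz, plp1b, mbpa, cd59 and cldnk, median -0.88).

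The spots most like the members by their rule are those rich in eomesa (LOC101480282), another pallial factor, chosen in the same way. There were 305 eomesa-rich spots, fewer than 330 because capture areas D of control male 1 and A of control male 2 had only 4 and 8 spots with an eomesa UMI. Of the neurod6b-rich spots 24 (7.27%) were eomesa-rich as well, against 281 (4.46%) of the 6294 other spots, and these 24 were 7.87% of the eomesa-rich spots. With these left out, 306 neurod6b-rich spots were tested against 281 eomesa-rich spots, without the 2 genes of the rules. Of 9172 genes, 624 (6.80%) were higher and 699 (7.62%) lower in the neurod6b-rich spots.

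Neurod6b-rich spots had high levels of several transcripts that eomesa-rich spots nearly lacked. LOC101484294 was at 548, 1251, 700.1 and 616 CPM in neurod6b-rich and 7.78, 51.4, 47.8 and 56.8 in eomesa-rich spots (log2 fold change 4.17, SE 0.23, adjusted p = 2.29e-08), a ratio of more than 10 in every male. The cluster marker mag was at 348, 384, 392 and 349 against 58.4, 37.6, 31.9 and 36.0 (log2 fold change 3.20, SE 0.18, adjusted p = 3.40e-13), and LOC101471915 at 493, 851, 808 and 845 against 73.9, 96.5, 106 and 139.8 (log2 fold change 2.84, SE 0.14, adjusted p = 1.06e-13). Both had no overlap between males. The muscarinic receptor chrm5 was at 79.7, 47.9, 40.1 and 61.6 against 3.89, 2.50, 10.6 and 0 (log2 fold change 4.37, SE 0.45, adjusted p = 4.44e-08), from 130 and 7 UMIs. The peptidase gene ecel1 was at 29.9, 55.5, 37.0 and 27.8 against 0, 0.626, 5.31 and 3.28 (log2 fold change 4.45, SE 0.52, adjusted p = 2.98e-07) and LOC101473406, unnamed here, at 244, 234, 142 and 139 against 27.2, 10.7, 5.31 and 16.4 (log2 fold change 3.76, SE 0.24, adjusted p = 9.70e-12). The receptor genes adrb1 (3.92, adjusted p = 6.75e-06, 76 and 5 UMIs), htr1a (3.02, adjusted p = 0.00157), calcr, galr2, cnr1 and an npr1 copy were higher, so receptors had 7 higher and 8 lower of 31 (median -0.13). The lower receptors were dopamine receptor genes drd2, drd3 and drd4, both htr7 copies, adra1b, an adra2c copy and sstr2.

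Eomesa-rich spots in turn held transcription factors that were low in neurod6b-rich spots. The factor fezf2 was at 4.98, 14.4, 6.17 and 10.9 CPM in neurod6b-rich and 338, 243, 47.8 and 276 in eomesa-rich spots (log2 fold change -4.40, SE 0.25, adjusted p = 3.40e-13). Zic2, a zinc-finger factor, was at 29.9, 47.9, 21.6 and 25.4 against 58.4, 154, 335 and 159 (log2 fold change -2.33, SE 0.29, adjusted p = 5.00e-05), and neurod1, a relative of neurod6b, at 0, 12.4, 3.08 and 1.21 against 54.5, 60.1, 15.9 and 50.2 (log2 fold change -3.04, SE 0.40, adjusted p = 2.66e-06). All 3 were lower in each male. With etv1 and bcl11b this made 5 of 10 pallial factors lower, 0 higher, with a median of -1.33 beside 0.01 over all genes. The auxiliary GABA-B receptor subunit kctd12 was at 19.9, 12.4, 6.17 and 15.7 against 307, 179.8, 90.3 and 288 (log2 fold change -4.01, SE 0.22, adjusted p = 3.32e-13), and slc4a10 at 84.7, 49.8, 70.9 and 89.5 against 1047, 735, 340 and 835 (log2 fold change -3.37, SE 0.19, adjusted p = 5.18e-11).

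The opioid precursor pdyn was at 24.9, 36.4, 30.8 and 19.3 in neurod6b-rich and 27.2, 313, 441 and 262 in eomesa-rich spots (log2 fold change -3.31, SE 0.26, adjusted p = 7.19e-08), and the synapse organiser cbln1 at 19.9, 50.8, 98.7 and 20.6 against 23.3, 534, 675 and 491 (log2 fold change -3.44, SE 0.36, adjusted p = 0.000556). Building male 1, with 1 capture area, had low levels of both in each class and hardly differed between them. Neurod6b cluster markers were split in this comparison, with 9 higher, 5 lower and 5 not passing of 19 (median 0.50), and cbln1, cacna2d1, tshz1, caln1 and LOC105940918 were the lower ones. Markers of other excitatory clusters were 2 higher and 20 lower of 34 (median -1.20). The transporter slc17a6 was slightly lower (-0.42, adjusted p = 0.00475) and both slc17a7 copies did not pass, but the slc17a6 call was lost without building male 2 or control male 2. Peptides and ligands were 1 higher (pnoc) and 5 lower of 24 (median -0.41), glutamate receptors 0 higher and 7 lower of 23, immediate early genes 3 higher and 8 lower of 24, and GABA and subpallial genes 0 higher and 1 lower of 7. Radial glia genes were 0 higher and 2 lower of 9 (gfap and hes1), radial glia state genes 4 higher and 7 lower of 25, and oligodendrocyte genes 1 higher (mpz) and 0 lower of 7. The counts were smaller without building male 2 (258 higher, 307 lower) and without control male 2 (269 and 347).

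**Figure D4:**
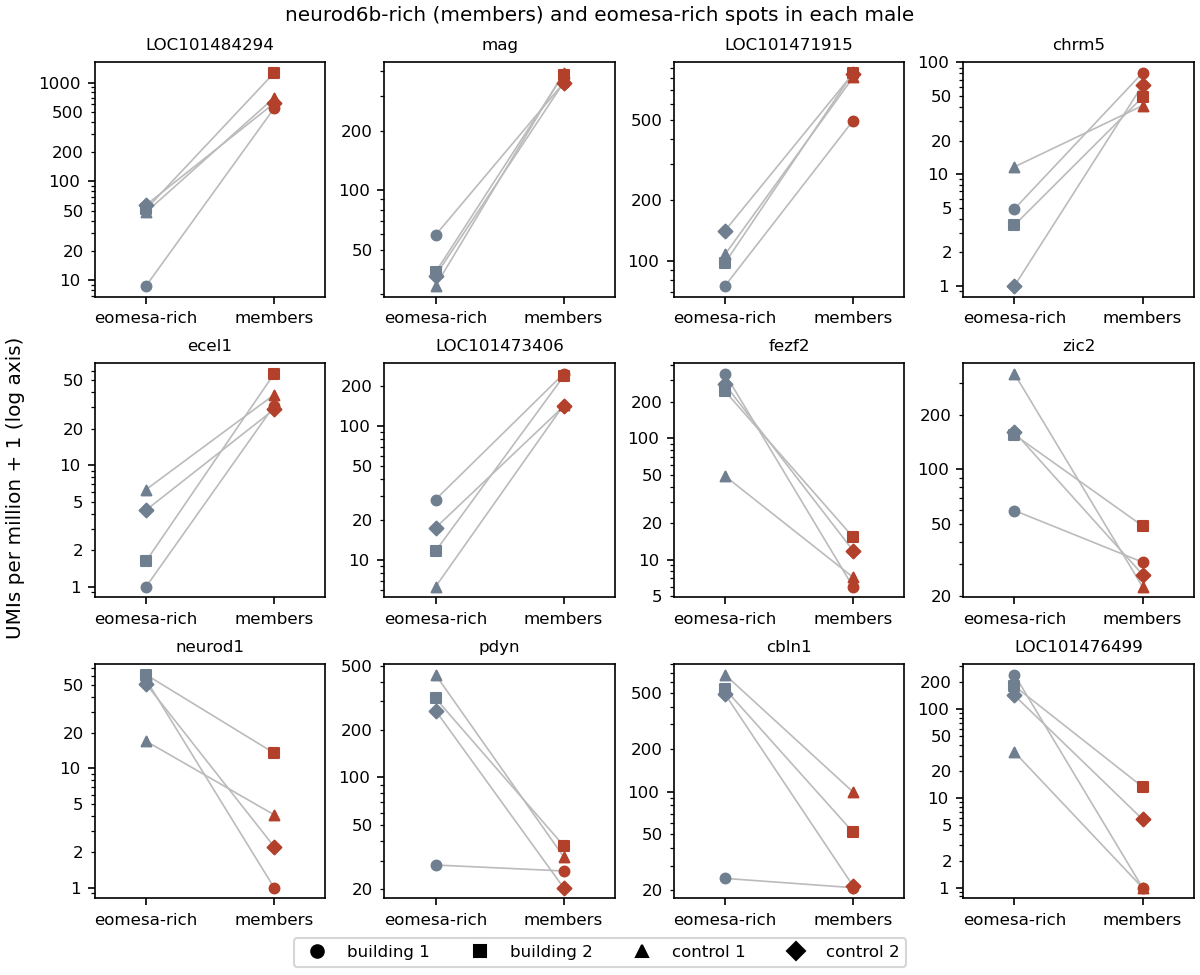
CPM + 1 (log axis) of 12 genes in the eomesa-rich spots (grey) and in the neurod6b-rich members (red) of each male, without the 24 spots in both groups, joined by a line, with 1 marker shape for each of the 4 males. LOC101484294, mag, LOC101471915, chrm5, ecel1 and LOC101473406 were higher in members in every male, fezf2, zic2, neurod1 and LOC101476499 lower, and pdyn and cbln1 lower except that the 2 classes were close in building male 1.

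The members differed among themselves more in some genes than in others. Over the 13 capture areas, 108 list genes with at least 150 UMIs in members had a median SD of the log2 level of 0.66 in members and 0.40 in other spots, but members were far fewer spots and so carry more counting error. Of the 3 glutamate transporter genes 2 were steady. Slc17a6 was 575 at the lowest, 809 at the median and 933 at the highest CPM in members (other spots 387, 598 and 684), an SD of 0.21 on the log2 scale, and the slc17a7 copy LOC101482485 was 344 at the lowest, 496 at the median and 579 at the highest (SD 0.21). The other slc17a7 copy, LOC101484681, was less steady, at 29.8 at the lowest, 109.9 at the median and 224 at the highest (SD 0.79). Cnr1 was 968 at the lowest, 1295 at the median and 2163 at the highest (other spots 454, 653 and 1173), and mag 177 at the lowest, 340.3 at the median and 491 at the highest (other spots 90.2, 122 and 264). So slc17a6, LOC101482485, cnr1 and mag were well expressed in the members of every section.

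Other genes were high in the members of some sections and nearly absent from others. Cbln1 was 15.1 at the lowest, 33.2 at the median and 894 at the highest CPM (SD 2.30, other spots 1.14), and was highest in capture areas D, C and B of building male 2 (894, 565 and 413), C of control male 1 (687) and B of control male 2 (390.2). Pdyn was 0 at the lowest, 34.4 at the median and 408 at the highest (SD 2.59) with its highest levels in capture areas D and C of building male 2 and C of control male 1 (408, 288 and 206). Eomesa itself was 0 at the lowest, 145 at the median and 582 at the highest (SD 2.49). The zinc-finger gene st18 was 0 at the lowest, 68.7 at the median and 414 at the highest (SD 2.71) and was low where cbln1 was high in building male 2, at 2.85, 4.47 and 0 in capture areas B, C and D, while capture areas D and C of control male 2 were at 414 and 294. Within building male 2 alone cbln1 ran from 21.97 to 894 CPM, most of the range over all sections. These are descriptions of sections, whose positions along the brain are not compared here.

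**Figure D5:**
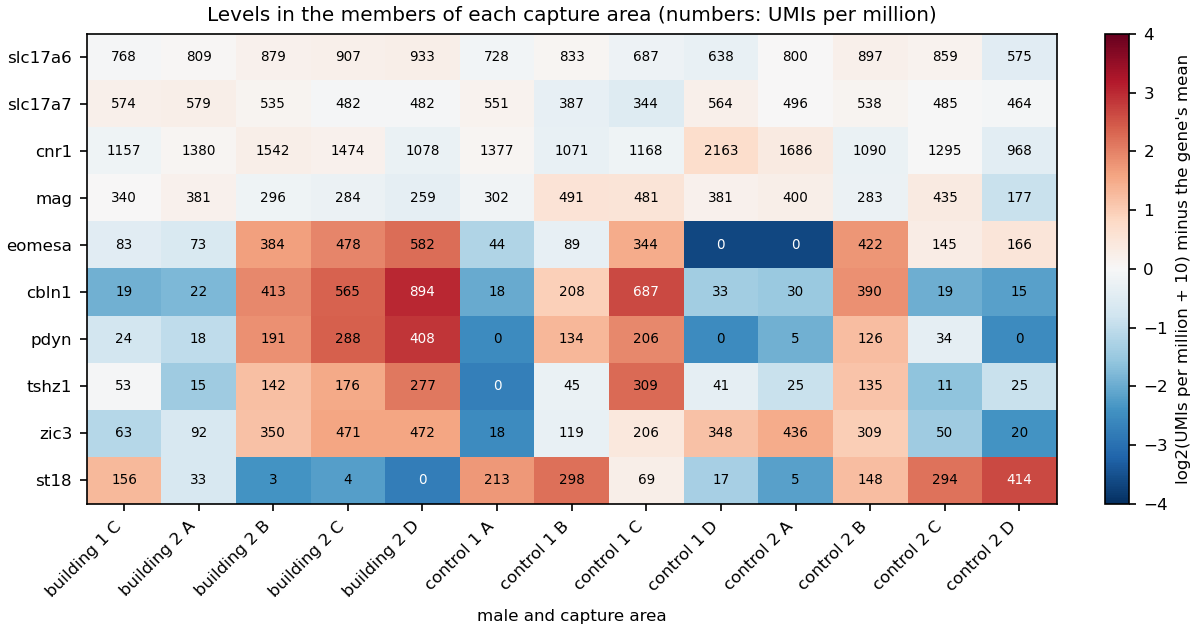
Level of 10 genes in the members of each of the 13 capture areas. Numbers are CPM and the colour is log2(CPM + 10) minus the gene's mean over areas, red above and blue below. Slc17a6 (575 to 933), slc17a7 (344 to 579), cnr1 and mag vary little, and eomesa, cbln1, pdyn and tshz1 are high in capture areas B to D of building male 2, C of control male 1 and B of control male 2, where st18 is 0 to 148.

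Most cbln1 and pdyn UMIs of the members lay in the 24 members that were also eomesa-rich. These 24 were examined after these values were seen and are described without a test. Building male 2 gave 16 of them (from capture areas B, C and D), control male 2 gave 4, control male 1 gave 3 and building male 1 gave 1. They were 7.27% of the members with 13.5% of their UMIs, and they held 695 of the 801 cbln1 UMIs (86.8%), 305 of 374 of pdyn, 204 of 282 of tshz1 and 83 of 131 of cacna2d1. Of the 285 st18 UMIs in members they held 1, so the variation of st18 lay among the remaining members. Cbln1 was at 1862 CPM in these 24 spots, 44.2 in the 306 remaining members and 484 in the 281 spots rich in eomesa alone. Transcripts typical of the other members were scarce in them. Mag was at 24.1 in the 24 spots against 370.1 in the remaining members, cnr1 at 58.9 against 1555, and LOC101484294 at 24.1 against 898. The transporter gene slc17a7 (LOC101482485) was at 549 and 507. Neurod6b, which chose both sets, was at 632 and 699.

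When these 24 spots were left out of the comparison with other spots, 504 genes were higher and 734 lower, and 969 of the 1075 earlier calls were among them. The call of cacna2d1 was lost and its direction turned (log2 fold change -0.34, adjusted p = 0.567). Cbln1 (-1.297, adjusted p = 3.20e-06), pdyn (-1.26, adjusted p = 1.64e-08) and tshz1 (-1.86, adjusted p = 9.18e-23) passed as lower, and had not passed before. Pallial factors were then 2 higher (bhlhe22 joined etv5) and 7 lower of 14, and neurod6b cluster markers 10 higher and 2 lower of 26. The spots were left out of the members only, and the eomesa-rich spots among the other spots stayed in. Leaving spots out by their eomesa rate lowers eomesa and genes that go with it by construction. Eomesa itself is among the 7 lower pallial factors. These falls and their adjusted p-values are therefore not independent of the choice.

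Building and control males were compared within the members, the contrast of the study, with 2 males against 2. At an adjusted p under 0.05 edgeR called 0 of 8411 genes higher (0%) and 0 lower (0%), with 259 genes at an unadjusted p under 0.05 and a smallest adjusted p of 0.424. DESeq2 also called 0, with 39 at an unadjusted p under 0.05. Neurod6b, which chose the members, was at 782 and 621 CPM in the members of building and 995 and 713 in those of control males. No list had a gene that passed, and the cluster markers had a median of 0.17 and the immediate early genes -0.02, beside 0.01 over all genes. Egr1 was at 277 and 251 in members of building and 304 and 249.9 in members of control males (log2 fold change -0.06, SE 0.22, adjusted p = 1). A difference of conditions was thus not detectable here, which with 2 males a group does not show that there is none. Calls appeared when 1 male was left out (67 higher and 67 lower without building male 1, which leaves 1 building male whose spread is assumed to be that of the controls).

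Whether building and control males differed in another way in members than in other spots was tested as an interaction over the 4 males and both classes. Of 13371 genes, 13 (0.0972%) were relatively higher in the members of building males and 5 (0.0374%) lower. The opioid precursor pdyn was at 24.3, 233, 45.5 and 43.2 CPM in members and 24.6, 82.1, 71.6 and 64.0 in other spots (interaction log2 fold change 1.94, SE 0.30, adjusted p = 3.23e-07). The high value was that of building male 2 alone, and building male 1 was below both control males. LOC106676021 was at 141, 350, 91.0 and 89.7 in members and 109, 152, 172 and 136 in other spots (interaction log2 fold change 1.71, SE 0.23, adjusted p = 2.32e-09), and here both building males had higher members than both control males. The call did not hold without building male 2 (interaction log2 fold change 1.05), with building male 1 as the only building male. It was also lost for the highest 10% of spots (1.88, adjusted p = 0.651). The 24 members also rich in eomesa held 309 of its 612 member UMIs. St18 was at 156, 8.86, 146 and 219 against 173, 27.9, 117 and 119 (interaction log2 fold change -1.42, SE 0.28, adjusted p = 0.00128), low in building male 2 only. A sst copy (LOC101485677, 0.70, adjusted p = 0.0434), tshz1 (1.23, adjusted p = 0.014), the protocadherin gene pcdh7 (1.59, adjusted p = 0.00128) and LOC101467020 (2.08, adjusted p = 1.78e-07) were among the higher ones.

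These 18 calls rested on few spots and males. Without building male 2, 8 genes were called, of which 1 was among the 18, and without building male 1, control male 1 and control male 2 the shared calls were 16, 10 and 4. Building male 2 gave 16 of the 24 eomesa-rich members. Without those 24 spots 3 genes were higher and 3 lower, all among the 18, namely LOC106676021, LOC101467020, LOC101484294, st18, LOC101463674 and LOC101480582. The pdyn difference then fell from 1.94 to 0.53 (adjusted p = 1), and that of mgp from 2.70 to 0.54 (adjusted p = 1). Building male 1 gave 1 section and 1 such spot, so for these genes the condition and the make-up of the members of building male 2 cannot be told apart.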

How the data were processed

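Visium libraries of 13 capture areas from 4 males were analysed. The authors deposited, for each capture area, a table of raw UMI counts per gene and spot barcode, made with Space Ranger 1.3.1 per the submitters' processing notes against a Maylandia zebra reference, without normalization. Gene names are those of the files or of the study's own tables (1022 of 21121 LOC numbers named), and LOC numbers left without a name are printed as they are. Near-identical gene copies were counted separately by the authors and their split is uncertain.

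Spots with at least 500 UMIs were kept, doublets were not called because a spot holds several cells, and members were taken as stated above. Counts were summed per male and class without LOC101472195. CPM values are counts per 1000000 of these sums. Genes passing filterByExpr were tested with edgeR 4.0.16 (quasi-likelihood, TMM, robust) with the male as a block, except between conditions, and p-values were adjusted by the Benjamini-Hochberg method over all genes tested. SE is the absolute log2 fold change over the square root of F. Spots and capture areas of 1 male were not treated as replicates, and intervals of counting were not used. The p-values rest on sums from 4 males, with a spread that edgeR moderates towards that of all genes. An SE can therefore be smaller than a gene's own spread between males, and a small p-value does not by itself show that the 4 males agreed. With 2 males against 2 an exact permutation test cannot go below p = 0.333. The step was tested on simulated data.

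Named genes were those of 13 lists from the study's tables and textbook markers, by counts and examples, and for each comparison the 15 with the largest change in each direction past the threshold with the same sign in 4 males, others being named only where a result turns on them. The members and lists were chosen with earlier results of these data known. Alternatives were other scaling (RLE, TMMwsp), no filter on low counts, the highest 10% of spots, at least 2 neurod6b UMIs, at least 1000 UMIs and thinning to 2000 UMIs. Others were DESeq2 1.42.0, limma 3.58.1, capture areas as samples, capture area C only, no block, and each male left out. For limma, log2 values (pseudocount 0.5) of other spots were subtracted from those of members within each capture area, and the differences were averaged per male. Thinning drew each spot down to 2000 UMIs, left out shallower spots and chose the members again, with tied rates taken in file order. Leaving out the spots also rich in eomesa, and capture area C of control male 1 outside the first comparison, were chosen after seeing the data.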

Additional observations from a re-analysis of the deposited data

Results flagged for a closer look

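In 104 groups of 4 males checked for a male far from the other 3, 2 stood out, where chance alone gives about 1 in 20. For fezf2 in members against other spots, the gap of the outlying male to its nearest neighbour was 0.834 of the range of the 4 log2 ratios, past the 95% limit of Dixon's test for 4 values. The outlying male was building male 1, with 4.86 CPM in members against 41.3 in other spots. That member level is 1 UMI, so the ratio of this male is uncertain. For tshz1 in neurod6b-rich against eomesa-rich spots the gap was 0.835 of the range, and building male 1 again stood apart, at 54.8 against 50.6, where the other 3 males were lower in neurod6b-rich spots.

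The difference between building and control males was not the same in members and in other spots for 18 genes by the interaction test. Taken with its sign, as building minus control on the log2 scale, it was higher in members for mgp (2.70), LOC101467020 (2.08), pdyn (1.94), LOC106676021 (1.71), pcdh7 (1.59), rgs12 (1.36), tshz1 (1.23), LOC101468340 (1.21), rbp4 (1.15), adcy1 (1.14), LOC101475711 (0.99), an sst copy (0.70) and LOC101484294 (0.66). It was lower for ngb (-1.17), LOC101486636 (-1.23), st18 (-1.42), LOC101463674 (-1.55) and LOC101480582 (-3.30). Causes were not tested.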

How the results depend on the processing

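Counts of higher and lower genes are given in that order. Members against other spots gave 403 and 672. The counts were 124 and 221 with no replicate block for the male, and 68 and 114 after thinning to 2000 UMIs. By DESeq2 they were 238 and 355 (584 of 593 calls shared), and by limma 375 and 359 (598 of 734 calls shared). The main test had 1075 calls. Without capture area C of control male 1 the counts were 426 and 663, and with 1 male left out 265 to 346 and 447 to 591. Against other glutamate-rich spots the 354 and 619 became 627 and 872 for the highest 10% of spots, 62 and 181 with no replicate block, 165 and 297 by DESeq2, and 180 to 305 and 406 to 511 with 1 male left out. Against eomesa-rich spots the 624 and 699 became 401 and 440 with no replicate block, 294 and 357 by DESeq2, and 258 to 721 and 307 to 799 with 1 male left out. Between conditions the 0 and 0 became 5 and 5 with no filter, and 1 to 67 and 1 to 67 with 1 male left out. The interaction gave 13 and 5, and 8 and 4 with no filter, 1 and 0 for the highest 10% of spots, 3 and 3 without the spots also rich in eomesa, and 5 to 33 and 0 to 21 with 1 male left out. Counts under the other settings stayed within 1.5 times.

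A chosen part of the named genes, and not all of them, was followed through the settings. Of these, 33 in the first comparison kept direction and side of the threshold in 504 of 561 values. The 16 against other glutamate-rich spots kept them in 150 of 159, and the 21 against eomesa-rich spots in 197 of 203. In the interaction 8 of the 18 called genes were followed and kept them in 43 of 72. Among the followed genes, direction turned for fezf2 after thinning (0.50, adjusted p = 0.79). In the interaction it turned for tshz1 without building replicate 2 (-0.25, range with 1 male left out -0.25 to 1.64). It also turned there for the sst copy in the highest 10% of spots (-0.37, adjusted p = 1). The cause was not tested. Thinning leaves fewer UMIs and also changes which spots are members. Between conditions a replicate block on the shared numbers gave 0 and 0 calls and 293 genes at an unadjusted p under 0.05. The paper describes size-matched pairs of building and control males, but the labels do not say whether the shared numbers mark these pairs. The deviations of same-numbered males hardly correlated over 8411 genes (r = 0.0725, 2 pairs). With so few pairs this cannot show whether the males were paired. Capture area C of control male 1 was the shallowest, and the part of depth in these results was not tested.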
